A study of Mus musculus with 47 samples.

Results

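The ELAV (Hu) RNA-binding proteins are a family of 4 genes in the mouse, Elavl1, which is active in nearly all cell types, and Elavl2, Elavl3 and Elavl4, which are known for their expression in neurons. Every deposited 3′ UTR whose RefSeq mRNA name maps to these genes was taken. That gave 10 of 39419 deposited rows and 4 of 30432 distinct 3′ UTR intervals, 1 for each gene. The transcripts listed for Elavl2 (4) and for Elavl4 (4) share 1 interval each, so that their isoforms could not be told apart. The question was how reads, labeling and decay of the ubiquitous and the neuronal members differed before and after neuronal differentiation.

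SLAM-seq, in which 4-thiouridine (4sU) built into new RNA is read as T>C conversions, had been carried out in P19 cells, a male mouse embryonal carcinoma line of wild-type genotype. Undifferentiated cells (D0) were compared with cells kept for 6 days in NDiff 227 medium with 500 nM retinoic acid (D6). D0 cells received 20 µM and D6 cells 500 µM 4sU, so that state and dose cannot be told apart in the levels of labeling. The same holds for shares of label from which the rate without 4sU was not subtracted. The uptake (anabolic) assay followed labeling from 0 h to 9 h, and the chase (catabolic) assay followed the loss of label over 9 h of UTP (10 mM) after 15 h of 4sU. Each assay had 4 time points, and libraries taken at 0 h of the uptake assay had no 4sU. The 47 libraries fall into 16 groups of 3, except the third time point of the chase at D6, which has 2. The labels give the hours as 0, 1, 3 and 9 and the methods as 0, 3, 6 and 9, so that the points between are named by their order. The study describes its replicates as biological, but the labels do not say that libraries of a group came from separate cultures, and p-values measure only the spread between these libraries.

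ELAV proteins bind U-rich and AU-rich stretches of RNA through RNA recognition motifs. ELAVL1 (HuR) moves between nucleus and cytoplasm and is best known for slowing the decay of mRNAs with AU-rich elements. The neuronal members ELAVL2 (HuB), ELAVL3 (HuC) and ELAVL4 (HuD) act on the stability, splicing and translation of neuronal mRNAs, and antibodies against them are common markers of newborn neurons. ELAV mRNAs are themselves known to carry sites for ELAV proteins.

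Reads on 3′ UTRs numbered from 1421076 to 11297884 per library (median 5561985). On Elavl1, between 187 and 3144 reads were counted per library, and on Elavl4 at D0 no more than 523. The 2 libraries of the third time point of the chase at D6 were among the 4 shallowest (1421076 and 1884567 reads), and in that contrast the median log2 difference of all intervals was -0.89, against -0.16 to 0 in the 7 other contrasts between the states. The other shallow libraries at D6 were replicate 53 of the last uptake point (1456291 reads) and replicate 40 of the second (1754503 reads). Libraries of 1 group differed by more than sampling noise throughout, with a chi-square per degree of freedom of at least 11.7. D6 libraries carried the labelled cell type in their markers. All 10 neuronal markers rose without 4sU, among them Rbfox3 (0.16 to 59.95 CPM), Dcx (8.71 to 1983 CPM) and Syp (0.14 to 7.74 CPM). Of 8 markers of undifferentiated cells tested, 7 fell, among them Nanog (6.18 to 0 CPM), Utf1 (89.8 to 0.27 CPM) and Tdgf1 (326 to 1.62 CPM). Of 6 progenitor markers, 3 rose, including Hes5 (0.82 to 801 CPM) and Fabp7 (2.30 to 181 CPM), while Sox1, Nes and Pax6 did not pass. The summed level of this list was 542 to 1301 CPM at D0 and 1692 to 3048 CPM at D6. Gfap and Aqp4, which define astrocytes, were at 0 CPM at D6 without 4sU, and the 5 astrocyte markers summed to 108 to 222 CPM at D0 and 1.08 to 158 CPM at D6, and Slc1a3 gave 172 and 135 CPM of this without 4sU. Of 2 endoderm markers tested none passed, with sums of at most 8.09 CPM at D0 and 30.7 CPM at D6. Of 5 mesoderm and muscle markers 1 fell, Acta2 (91.3 to 3.30 CPM), and Des (4.03 to 0 CPM) did not pass. The sums of this list were 78.3 to 156 CPM at D0 and 0.185 to 27.05 CPM at D6. In such bulk samples, more cells of a type and more RNA per cell cannot be told apart.

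The 4 intervals lie on the minus strand of mm10 and are the 3′ UTRs of their genes. Elavl1 is at chr8:4284782-4289599 (4818 bases, 33.4% T), Elavl2 at chr4:91250766-91253239 (2474 bases, 36.3% T), Elavl3 at chr9:22015005-22018502 (3498 bases, 21.6% T) and Elavl4 at chr4:110203737-110206331 (2595 bases, 34.2% T). No other annotated gene of GENCODE vM21 overlapped them. The share of T matters because only T positions can report a label, and it was lowest on Elavl3. The 30-base window with the most T of each 3′ UTR is shown because such stretches are of the kind ELAV proteins bind. Sequences are from the GENCODE vM21 transcripts (GRCm38), written 5′ to 3′ on the strand of the mRNA. Capitals mark matches to TTTNTTT, a U-rich motif searched on the mRNA strand with overlaps counted.
Elavl1, chr8:4289541-4289570: TTTTTTTTTTcctTTTCTTTTTTCTTTttt
Elavl2, chr4:91252808-91252837: tTTTCTTTctcTTTCTTTtgtcTTTGTTTt
Elavl3, chr9:22016645-22016674: tcttttgattgttgggTTTTTTTgtctttt
Elavl4, chr4:110205743-110205772: aTTTTTTTATTTttccttTTTCTTTtatat

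The Elavl1 3′ UTR held 54 matches to TTTNTTT in the 4218 bases that the annotation covers, or 12.8 per kb. Elavl4 held 18 (6.94 per kb), Elavl2 13 (5.25 per kb) and Elavl3 6 (1.72 per kb). Among 4542 annotated 3′ UTRs of 2000 to 5000 bases the median was 2.86 per kb, and 95.7% held the motif. Elavl1 thus stood at percentile 98.3 and Elavl3 at percentile 31.1 of that density. The pentamer ATTTA, the core of AU-rich elements, was found 17 times on Elavl1, 15 on Elavl2, 8 on Elavl3 and 9 on Elavl4, and 95.8% of the 3′ UTRs held it. Per kb, Elavl2 was highest with 6.06, at percentile 99.3. The longer TTATTTATT, which 14.6% of the 3′ UTRs held, was found 8 times on Elavl1, once on Elavl4 and not on the others. The window of Elavl1 with the most pentamers is shown because it is the densest AU-rich element of the family, with capitals marking ATTTA.
Elavl1, chr8:4285778-4285807: attATTTATTTATTTATTTAtttttATTTA

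QuantSeq reads start near the poly(A) tail, so that the 3′ ends of the intervals should carry most of the measurement. Where reads fell within these intervals was not examined. The last AATAAA, the usual poly(A) signal, is shown in capitals because it marks where the annotated 3′ UTR ends. On Elavl2 and Elavl3 it began 22 bases and on Elavl4 25 bases before the end of the interval, its own bases included. On Elavl1 it ended the 4218 bases of the annotated transcript, and the deposited interval ran on beyond it, over sequence not used here.
Elavl1, chr8:4285382-4285411: ctgacattgctgtccaaagtcaacAATAAA
Elavl2, chr4:91250770-91250799: gttcggtacatcAATAAAcaaagttgaagg
Elavl3, chr9:22015009-22015038: ttcatgccagaaAATAAAaagttcagaatc
Elavl4, chr4:110203744-110203773: atctgtccagacAATAAAtgaaagtgtgta

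Without 4sU, the 3 neuronal members rose from D0 to D6 and Elavl1 was not called. Levels are given as CPM, read counts scaled to the reads of the library on 3′ UTRs with TMM, for the 3 libraries of each group. Elavl1 was at 241, 217.6 and 238.5 CPM at D0 and at 169.5, 242.0 and 230.5 CPM at D6, and the groups overlapped. Its log2 fold change was -0.12 (SE 0.36), with a 95% interval from -0.82 to 0.59 (edgeR quasi-likelihood test with Benjamini-Hochberg adjustment over 14711 intervals, adjusted p = 0.964).

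Elavl2 was at 175.3, 208.7 and 198.1 CPM at D0 and at 557.4, 826.4 and 617.5 CPM at D6. Every D6 library was above every D0 library, and the fold change was 3.44 (log2 1.78, SE 0.29, edgeR adjusted p = 4.99e-06). Elavl3, a common marker of neurons, went from 104.2, 69.5 and 73.2 CPM to 2436.8, 1807.1 and 1807.3 CPM. The fold change was 24.5 (log2 4.61, SE 0.24, edgeR adjusted p = 9.29e-25). Elavl4, known for its binding to Gap43 mRNA, went from 30.7, 17.1 and 18.3 CPM to 1970.0, 1802.5 and 1515.7 CPM. It had the largest fold change of the family, 79.7 (log2 6.32, SE 0.35, edgeR adjusted p = 2.30e-23).

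Over all intervals 8.8% were called in this comparison, 766 higher at D6 (5.21%) and 529 lower (3.6%). With library totals of all mapped reads in place of TMM the split was 512 higher and 639 lower, and 3 of 4 members were still called, all higher. The neuronal members had reads at D0 already, Elavl4 with 83 to 226 reads in the libraries without 4sU and Elavl3 with 337 to 766.

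**Figure D1:**
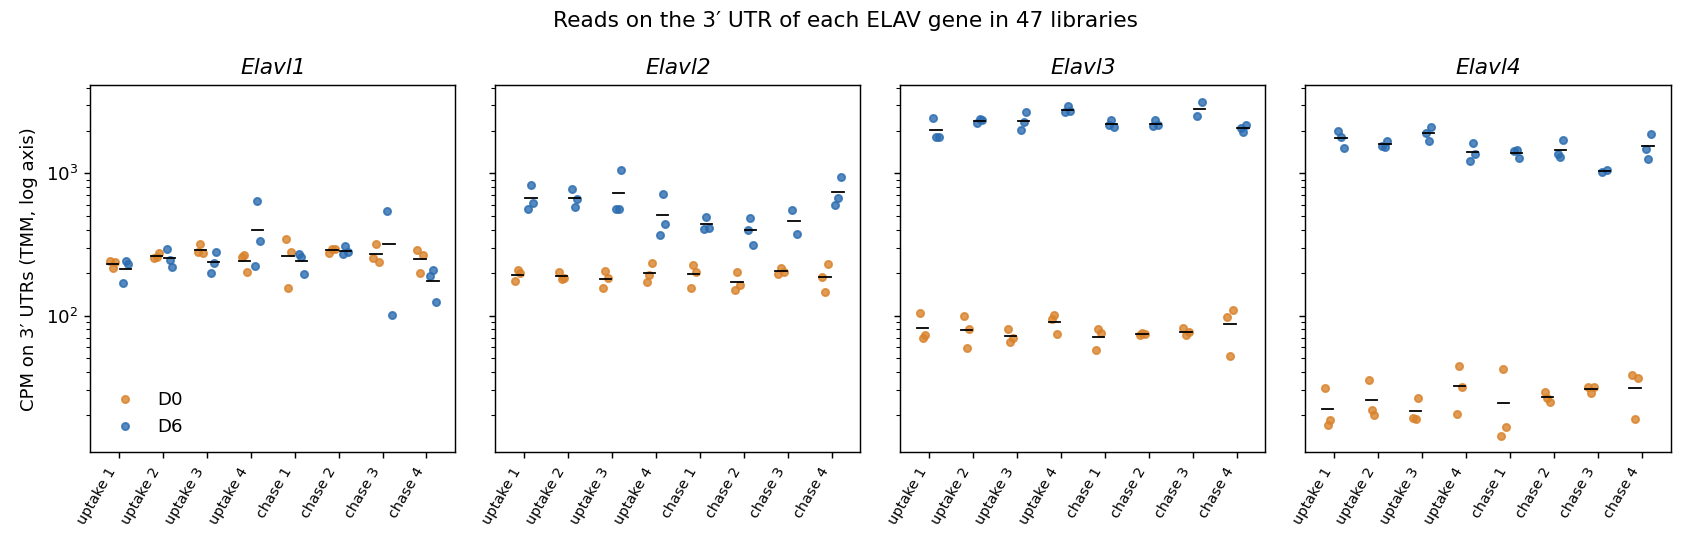
CPM on the 3′ UTR of each ELAV gene (log axis) in every library, by state and by time point of the uptake and the chase assay. Points are libraries and bars are group means. Elavl1 overlaps between D0 (orange) and D6 (blue), whereas Elavl3 and Elavl4 leave a gap of at least 16.5 and 23.3 times between the highest D0 and the lowest D6 library.

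Over the 24 D0 and 23 D6 libraries, Elavl3 ranged from 52.1 to 109 CPM (median 74.8) at D0 and from 1807 to 3193 CPM (median 2302) at D6. Elavl4 ranged from 14.3 to 44.1 CPM (median 26.4) at D0 and from 1029 to 2118 CPM (median 1516) at D6. The lowest D6 library was 16.5 times the highest D0 library for Elavl3 and 23.3 times for Elavl4. For Elavl2 the ranges were 146 to 234 CPM (median 194) and 314 to 1058 CPM (median 561), and the gap was 1.34 times. Of all intervals, 1.61% were higher at D6 without overlap in the 47 libraries, and 14.3% were so in the 6 libraries without 4sU.

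Elavl1 overlapped widely, from 157 to 348 CPM (median 265) at D0 and from 101 to 637 CPM (median 242) at D6. Its highest and lowest values at D6 were in libraries that stand apart. Replicates 14 and 15 of the third chase point had 540 and 101 CPM, and replicate 53 of the last uptake point had 637 CPM. Without those 3 libraries the D6 range of Elavl1 was 124 to 333 CPM (n = 20), and Elavl3 and Elavl4 stayed at or above 1807 and 1225 CPM.

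Tested in each of the 8 conditions, Elavl2, Elavl3 and Elavl4 rose in all 8 and Elavl1 was called in none. The contrasts at different time points use different libraries. The log2 fold changes of Elavl3 lay between 4.58 and 5.21, those of Elavl4 between 5.10 and 6.48, and those of Elavl2 between 1.161 and 1.996. Those of Elavl1 lay between -0.53 and 0.71. Of all intervals, 9.72%, 9.07% and 11% were called at the uptake points after 0 h, and 8.63%, 18.2% and 9.63% at those of the chase. After 15 h of 4sU, where 9.27% of intervals were called, the values were -0.11 for Elavl1 (edgeR adjusted p = 0.979), 1.161 for Elavl2 (edgeR adjusted p = 0.00348), 4.97 for Elavl3 (edgeR adjusted p = 1.49e-25) and 5.83 for Elavl4 (edgeR adjusted p = 4.22e-22). With totals of all mapped reads the call of Elavl2 after 15 h was lost (log2 0.82, edgeR adjusted p = 0.0667), and that scaling moved the median of all intervals by -0.19.

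**Figure D2:**
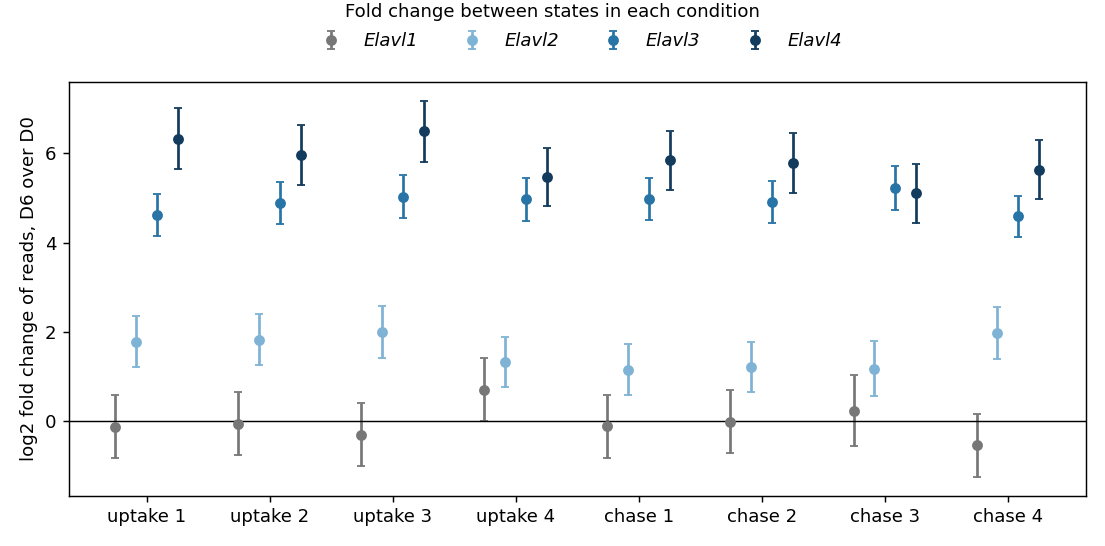
Log2 fold change of reads, D6 over D0, for each ELAV gene at the 4 points of the uptake and of the chase assay, with 95% intervals. Elavl3 (4.58 to 5.21) and Elavl4 (5.10 to 6.48) lie above Elavl2 (1.161 to 1.996) in every condition, and the interval of Elavl1 includes 0 except at the last uptake point (0.0058 to 1.42), where it was not called.

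When the 16 group means of a gene were put in order, few neighbours differed by more than the larger SD. This held for 0 of 15 neighbouring pairs for Elavl1, 1 for Elavl2, 3 for Elavl3 and 3 for Elavl4. For Elavl1 the lowest mean was at the last chase point of D6 (174 ± 43.8 CPM, SD, n = 3) and the highest at the last uptake point of D6 (398 ± 214 CPM, SD, n = 3).

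The make-up of the family changed with the state. At D0 without 4sU, Elavl1 held 43.8% ± 1.37 (SD, n = 3) of the reads on the 4 genes, Elavl2 36.7% ± 4.50, Elavl3 15.4% ± 3.00 and Elavl4 4.13% ± 1.26. At D6, Elavl1 held 4.67% ± 1.20, Elavl2 14.4% ± 3.42, Elavl3 43.1% ± 4.42 and Elavl4 37.7% ± 1.22. The summed level of the family was 531 ± 19.3 CPM at D0 and 4661 ± 482 CPM at D6. The smaller share of Elavl1 at D6 stood beside a higher level of the other members, while its own level was not called.

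Compared per kb of 3′ UTR, in the libraries without 4sU Elavl2 led at D0 with 49.5% and Elavl4 at D6 with 43.2%. Elavl1 went from 30.4% to 2.87% per kb. On this scale Elavl3 went from 14.8% to 36.6%, Elavl2 from 49.5% to 17.3% and Elavl4 from 5.33% to 43.2%. After 15 h of 4sU, Elavl3 led at D6 per kb as well, with 45.5% against 38.4% for Elavl4, and with 3′ tags reads need not grow with length.

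The log2 ratio of Elavl1 reads to the sum of the neuronal members was -0.44 to -0.28 in the D0 libraries without 4sU and -4.87 to -4.09 in the D6 libraries. As ratios the means were 0.779 at D0 and 0.0491 at D6. The difference was -4.02 on the log2 scale (two-sided exact permutation test, p = 0.1, the smallest p that 3 against 3 libraries allow). In the 7 other conditions the difference was -4.47 to -3.28, with no overlap between the states in any.

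**Figure D3:**
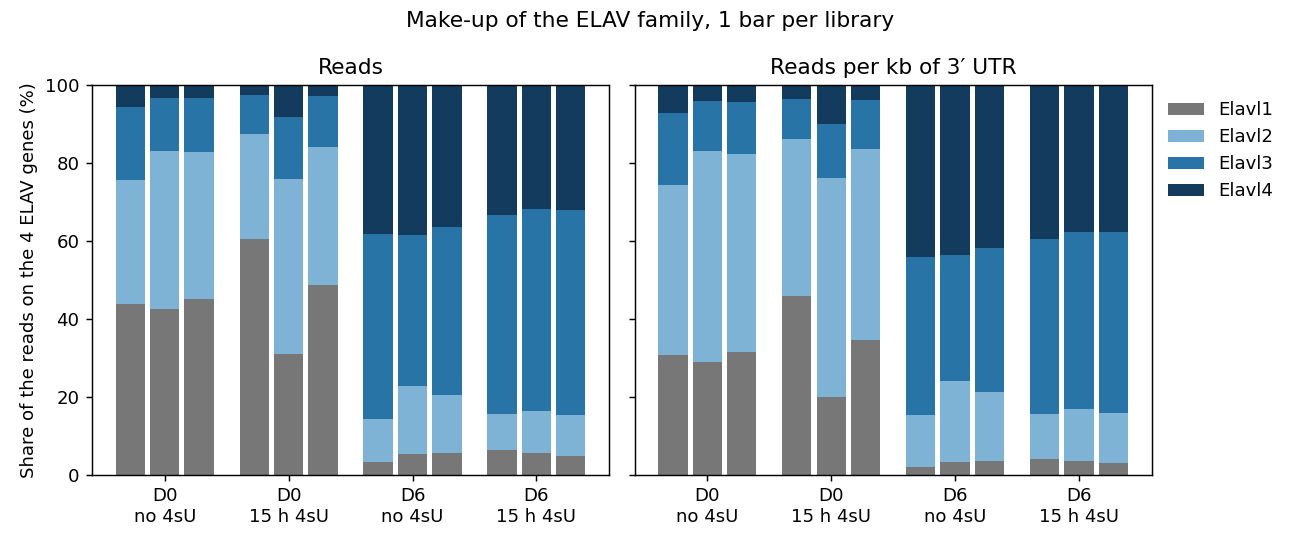
Share of the reads on the 4 ELAV genes held by each gene, in percent, as reads (left) and as reads per kb of 3′ UTR (right), with 1 bar per library. Elavl1 holds 43.8% of reads on average at D0 without 4sU and 4.67% at D6, and libraries after 15 h of 4sU show the same order of states.

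The effect of labeling itself on reads was tested within each state. Between 15 h of 4sU and none, 0.0612% of intervals were called at D0 and 0.0068% at D6, with 762 and 949 at an unadjusted p under 0.05. DESeq2 called 234 and 233. No member was called by either tool. The furthest was Elavl2 at D6, at 404, 492 and 416 CPM after 15 h against 557.4, 826.4 and 617.5 CPM without, where the groups do not overlap, as for 6.23% of all intervals (log2 -0.61, SE 0.28, edgeR unadjusted p = 0.0354, adjusted p = 0.741).

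Covered T positions per read, which depend on where in the 3′ UTR a read falls and on its aligned length, were compared between the states. On Elavl1 it was 41.6 to 47.6 (median 46.2) in the D0 libraries and 28.9 to 42.7 (median 36.5) in the D6 libraries, which overlap only narrowly. Without 4sU it was 44.6 ± 1.85 at D0 and 37.6 ± 3.01 at D6 (SD, n = 3 each, exact permutation p = 0.1, the smallest possible), without overlap. On Elavl2 it was 29.99 ± 0.81 and 28.5 ± 0.30 (exact permutation p = 0.1), again without overlap. On Elavl3 and Elavl4 the groups overlapped, with exact permutation p = 0.7 and 0.4 (n = 3 each). Among 1084 intervals with at least 100 reads in every library, 7.29% were lower at D6 without overlap in the libraries without 4sU. Neither the position nor the aligned length of the reads is given in the data used here, so that the 2 cannot be told apart.

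Label after 15 h was present on all members in both states. The conversion rate, T>C conversions per covered T, is given in percent. On Elavl1 it was 1.13%, 1.11% and 1.31% at D0 and 5.22%, 5.90% and 4.51% at D6. On Elavl2 it was 1.60%, 2.27% and 0.99% at D0 and 4.34%, 5.56% and 4.22% at D6. On Elavl3 it was 1.77%, 2.28% and 3.22% at D0 and 4.997%, 5.13% and 5.18% at D6, and on Elavl4 2.38%, 2.18% and 3.67% at D0 and 5.64%, 5.14% and 4.24% at D6. The D6 values were higher in every library of every member, together with the higher dose, as they were for 55.8% of 7961 intervals. The rate of the whole library was 1.42% at D0 and 4.65% at D6.

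Relative to the rate of the whole library, the difference between the states was 0.42 for Elavl1, -0.16 for Elavl2, -0.63 for Elavl3 and -0.85 for Elavl4 on the log2 scale. None was called (edgeR, adjusted p = 1 for each), nor was any of 9820 intervals (those averaging 1000 or more covered T per library), of which 525 had an unadjusted p under 0.05 and DESeq2 called 20. At D0, Elavl4 carried 1.94 ± 0.64 and Elavl3 1.71 ± 0.56 times the rate of the library, and at D6 1.07 ± 0.078 and 1.10 ± 0.10 times (SD, n = 3 each). At D0 those rates rest on 1010 to 6448 covered T per library.

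Without 4sU, the members differed in their background. Elavl2 carried 0.34%, 0.69% and 0.30% at D0 and 0.16%, 0.54% and 0.37% at D6, or 2.52 and 2.21 times the rate of the library. Its pooled rate was at percentile 89.1 of all intervals at D0 and 87.3 at D6, where the medians were 0.020% and 0.020%. Elavl1 carried 0.092%, 0.013% and 0.11% at D0 and no more than 0.011% at D6. Elavl3 (0.11% to 0.23% at D0, 0.17% to 0.37% at D6) and Elavl4 (0.043% to 0.21% and 0.11% to 0.16%) lay between. The mean on Elavl2 without 4sU was 0.441% at D0 and 0.36% at D6, against 0.647% and 0.475% left after 9 h of chase.

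**Figure D4:**
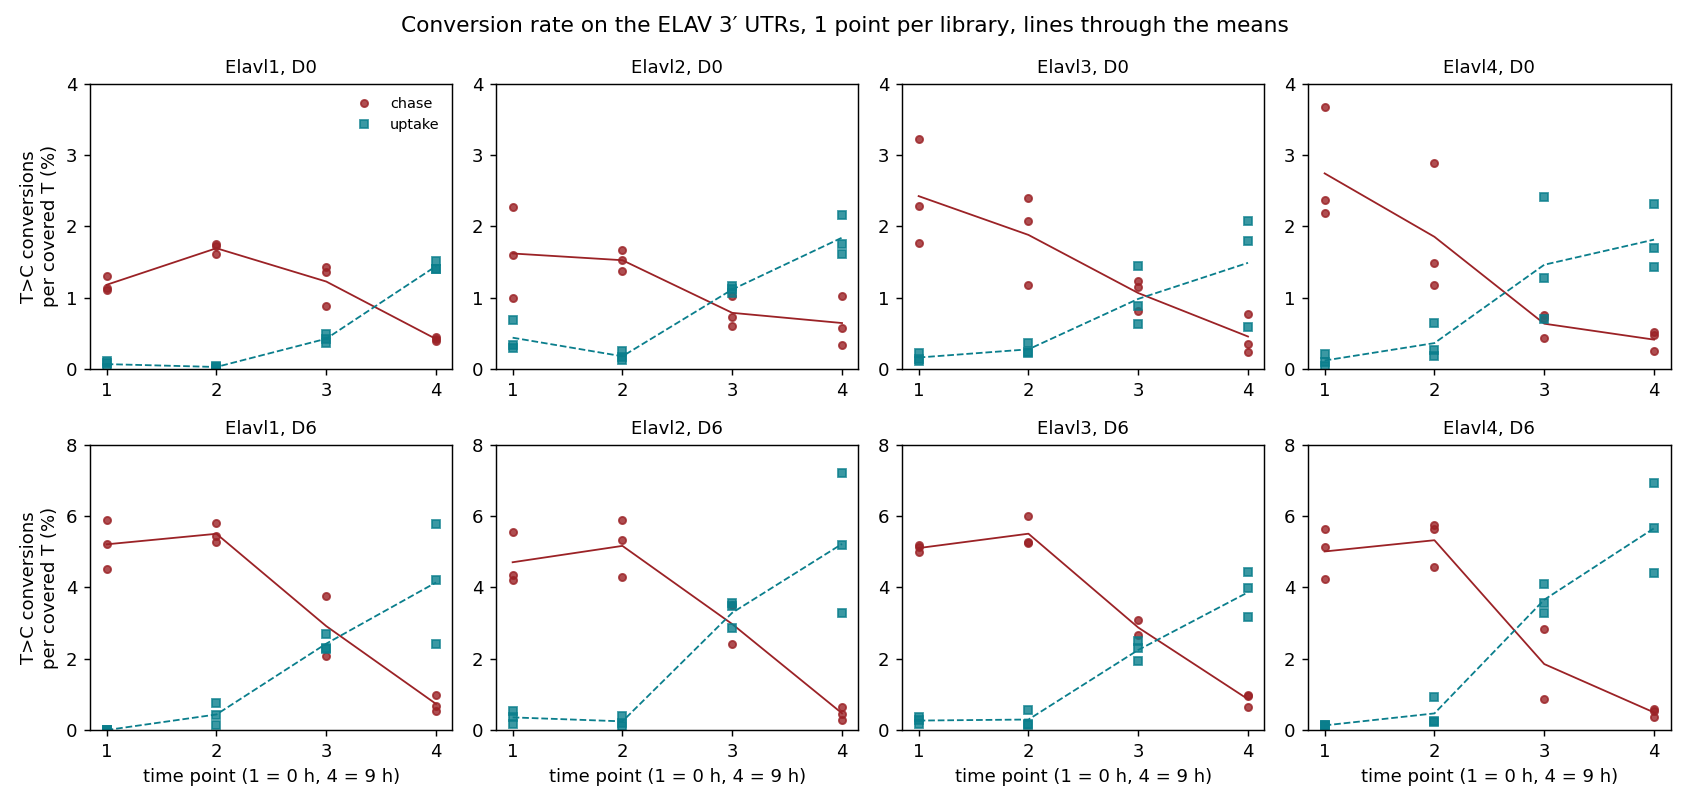
T>C conversion rate in percent of covered T on each ELAV 3′ UTR at the 4 time points of the chase (red circles) and uptake (teal squares) assays, at D0 (top) and D6 (bottom, on a longer axis). Points are libraries and lines join the means. After 9 h of chase all 4 genes at D6 are below 1% from over 4% at 0 h, and at D0 Elavl1 rises at the second point before it falls.

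After 9 h of chase, the loss of label was called by edgeR on all 4 members at D6 and on Elavl3 and Elavl4 at D0. Elavl1 at D0 also fell, from a mean of 1.18% to 0.423% without overlap, and Elavl2 from 1.62% to 0.647% with overlap. Neither of these 2 passed in edgeR. At D6 the rates on Elavl1 were 0.68%, 0.54% and 0.99%, on Elavl2 0.46%, 0.66% and 0.30%, on Elavl3 0.99%, 0.97% and 0.65% and on Elavl4 0.53%, 0.59% and 0.38%. Every one of these is below every 0 h library of that gene, which held for 67.3% of 7959 intervals. The log2 changes were -2.82 for Elavl1 (SE 0.68, edgeR adjusted p = 0.00263), -3.31 for Elavl2 (SE 0.58, edgeR adjusted p = 5.45e-05), -2.55 for Elavl3 (SE 0.48, edgeR adjusted p = 0.000154) and -3.33 for Elavl4 (SE 0.54, edgeR adjusted p = 9.81e-06). In this comparison 34.3% of 9820 intervals were called and the median log2 change of all was -3.04, so that the members lay near the middle, between percentiles 43.6 and 61.8. When the fall of the whole library was taken out, no member was called in either state (edgeR adjusted p from 0.371 to 0.954), and Elavl1 and Elavl2 at D0 turned to 0.30 and 0.49.

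At D0 the rates after 9 h were 0.45%, 0.43% and 0.39% on Elavl1 and 0.34%, 1.03% and 0.58% on Elavl2. On Elavl3 they were 0.23%, 0.78% and 0.36%, and on Elavl4 0.52%, 0.48% and 0.25%. Elavl2 was the only member whose highest 9 h library (replicate 35) reached the 0 h libraries, and 47.7% of 8651 intervals did not overlap in this way. The log2 changes were -2.42 for Elavl3 (SE 0.49, edgeR adjusted p = 0.000776) and -2.74 for Elavl4 (SE 0.54, edgeR adjusted p = 0.00069). Elavl1 changed by -1.48 (SE 0.65, edgeR adjusted p = 0.0876) and Elavl2 by -1.33 (SE 0.54, edgeR adjusted p = 0.0688), neither of which passed. DESeq2 called both, with adjusted p of 0.030 for Elavl1 and 0.031 for Elavl2. Here 18.4% of intervals were called, with a median of -2.36.

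Shares were taken of the mean rate at 0 h in each state. Their SDs and p-values thus leave out the spread between the 0 h libraries. As a share of that mean, Elavl1 kept 35.8% ± 2.21 at D0 and 14.2% ± 4.47 at D6 (SD, n = 3 each, exact permutation p = 0.1). Elavl2 kept 39.9% ± 21.8 and 10.1% ± 3.83 (exact permutation p = 0.1), Elavl3 18.9% ± 11.8 and 17.01% ± 3.74 (exact permutation p = 0.9), and Elavl4 15.1% ± 5.22 and 9.96% ± 2.12 (exact permutation p = 0.3). Elavl1 and Elavl2 kept less at D6 in every library, while Elavl3 and Elavl4 overlapped. Of 7192 intervals with covered T in every library compared, 15.3% were lower at D6 without overlap, and the median share left over all intervals was 17.1% at D0 and 11.4% at D6. These shares include the rate without 4sU. For whole libraries that rate was 0.169% at D0 and 0.164% at D6, against 1.42% and 4.65% at 0 h of the chase. With the rate without 4sU subtracted, Elavl2 kept 17.4% ± 29.9 at D0 and 2.65% ± 4.15 at D6 (exact permutation p = 0.6), and its separation was lost. Elavl1 then kept 31.6% ± 2.35 and 14.1% ± 4.47 (exact permutation p = 0.1).

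**Figure D5:**
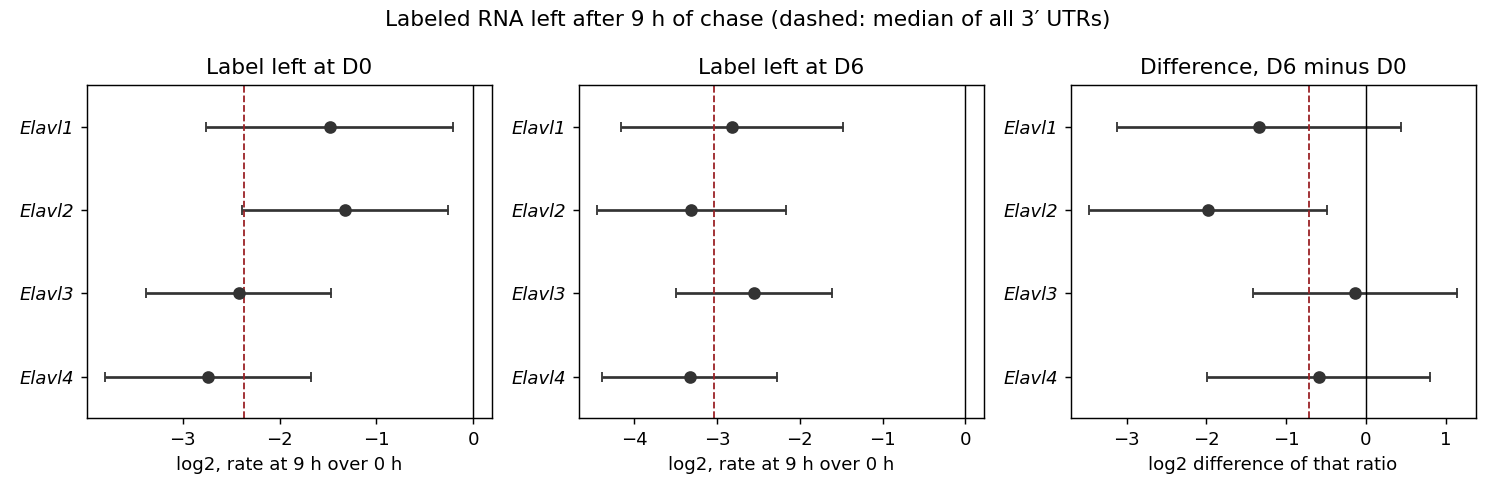
Log2 change of the conversion rate from 0 h to 9 h of chase for each ELAV gene at D0 (left) and D6 (middle) and the difference of those changes, D6 minus D0 (right), with 95% intervals. The dashed line is the median of all 9820 intervals. Intervals of Elavl1, Elavl3 and Elavl4 in the right panel include 0, and that of Elavl2 (-3.47 to -0.49) does not, before adjustment for multiple tests.

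Tested as a difference between the states, no member passed. The rate without 4sU was not subtracted in this test. On Elavl2 that rate was 27.2% of the mean rate at 0 h at D0 and 7.65% at D6. The log2 difference was -1.98 for Elavl2 (95% interval -3.47 to -0.49, edgeR unadjusted p = 0.0111, adjusted p = 0.299), -1.34 for Elavl1 (-3.12 to 0.44, edgeR adjusted p = 0.675), -0.59 for Elavl4 (-1.99 to 0.81, edgeR adjusted p = 0.888) and -0.13 for Elavl3 (-1.41 to 1.14, edgeR adjusted p = 1). Of all intervals 2 (0.0204%) were called, 1039 had an unadjusted p under 0.05, and the median difference was -0.71. For the neuronal members Elavl3 and Elavl4, whose reads rose most, these intervals are wide and do not show that the loss was alike.

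The points of the chase between 0 and 9 h showed how the fall ran. On Elavl1 at D0, all 3 libraries of the second point (1.75%, 1.73% and 1.61%) were above all 3 at 0 h, at 143% ± 6.41 of the mean (SD, n = 3, exact permutation p = 0.1), as were 9.49% of 8768 intervals. The overall rate of the D0 libraries was 1.42% at 0 h and 1.41% at the second point. On Elavl3 at D6, the second point stood at 103%, 118% and 103% of the 0 h mean, above every 0 h library (exact permutation p = 0.1, n = 3 each), as it did for 4.17% of 7676 intervals. At the third point Elavl1 stood at 104% ± 25.3 of its 0 h mean at D0 and at 56.02% ± 22.9 at D6 (SD, n = 3 and 2). At D0, Elavl4 was lowest at that point, with 23.2% ± 6.28, followed by Elavl3 with 43.997% ± 9.16 and Elavl2 with 48.7% ± 13.4. At D6 the means were 37.02% ± 27.8 for Elavl4, 56.4% ± 5.94 for Elavl3 and 63.2% ± 16.4 for Elavl2 (SD, n = 2). The order of the members differed between the 2 libraries, with Elavl4 at 17.4% in replicate 14 and at 56.7% in replicate 15, and Elavl1 at 72.2% and 39.8%.

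Half-lives from an exponential fit over the hours of the methods, kept where R squared was over 0.6, could be given for 11 of 16 combinations of gene, state and assay, for 14 with the hours of the labels and for 9 with the rate without 4sU subtracted. The decay half-life was 299 min (SE 59.2) at D0 and 405 min (SE 106) at D6 for Elavl3, and 216 min (SE 44.7) and 324 min (SE 95.6) for Elavl4. For Elavl1 it was 384 min (SE 105) at D6, and at D0 the fit had an R squared of 0.19. With these hours neither fit of Elavl2 to the single libraries was kept (R squared of 0.55 and 0.59), while fits to the mean of each point were, at 446 min at D0 and 409.7 min at D6. Of the 9820 intervals 14.9% had a kept decay fit at D0 and 16.7% at D6, so that the kept values are a selected few. Fitted to 0 and 9 h only, the decay half-lives were 364 and 191 min for Elavl1, 163 min for Elavl2 at D6, where the fit at D0 was not kept, 225 and 211 min for Elavl3, and 198 and 162 min for Elavl4 at D0 and D6. With the hours of the labels they were 242 min for Elavl1 and 249 min for Elavl2 at D6, 173 and 257 min for Elavl3 and 98.0 and 191 min for Elavl4. The direction between the states for Elavl3 and Elavl4 thus turned with the time points that were used.

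No difference between the states in uptake of label after 9 h passed the test for any member. Relative to the mean after 15 h, Elavl1 reached 122% ± 5.17 at D0 and 79.5% ± 32.4 at D6, Elavl2 114% ± 17.5 and 111% ± 41.8, Elavl3 61.5% ± 32.4 and 75.7% ± 12.3, and Elavl4 66.2% ± 16.5 and 113% ± 25.2 (SD, n = 3 each). For Elavl4 every D6 library was above every D0 library (exact permutation p = 0.1), as for 4.84% of 6649 intervals. Its mean after 15 h at D0 rests on libraries of 57, 180 and 57 reads. For Elavl1 every D6 library was below every D0 library (exact permutation p = 0.1), and the share of all intervals in that direction was not counted. These SDs and p-values leave out the spread between the 15 h libraries. The log2 differences between the states were -0.62 for Elavl1, -0.04 for Elavl2, 0.30 for Elavl3 and 0.77 for Elavl4, with 95% intervals from -2.39 to 1.15, -1.51 to 1.44, -0.97 to 1.57 and -0.61 to 2.15 (edgeR adjusted p = 1 for each). Of all intervals 0 were called by edgeR, 600 had an unadjusted p under 0.05 and DESeq2 called 49. The kept synthesis half-lives were 369 min for Elavl1 and 232 min for Elavl2 at D6, 474 and 401 min for Elavl3, and 385 and 217 min for Elavl4 at D0 and D6. With the hours of the labels, fits at D0 were kept for Elavl1 and Elavl2 too, and the values at D0 and D6 were 176 and 230.1 min for Elavl1, 122 and 128 min for Elavl2, 329.98 and 256 min for Elavl3, and 248 and 118 min for Elavl4.

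Proteins that share AU-rich sites with the ELAV family mostly did not pass the test in reads without 4sU. Of 13 tested, 2 rose, 0 fell and 11 did not pass, with a median log2 fold change of -0.33 beside 0 for all intervals, of which 8.8% were called. After 15 h of 4sU, 2 rose, 2 fell and 9 did not pass, where 4.76% of all intervals rose and 4.51% fell. Celf2, a splicing and stability factor of neurons and muscle, went from 171 to 738 CPM (log2 2.11, edgeR adjusted p = 1.96e-08). Tia1, a stress granule protein that binds U-rich sites, went from 42.9 to 161 CPM (log2 1.90, edgeR adjusted p = 0.0366). Zfp36, which directs AU-rich mRNAs to decay, was at 2.62 and 0.35 CPM and did not pass. Unadjusted counts over all intervals were 3203 of 14711 at p under 0.05.

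Of 10 partners and regulators of ELAV proteins, 3 fell, 0 rose and 7 did not pass, with a median of -0.59, where 3.6% of all intervals fell. Igf2bp1, which binds and protects many of the same mRNAs, went from 2483 to 572 CPM (log2 -2.12, edgeR adjusted p = 3.49e-13). Set and Anp32b, the latter a ligand of ELAVL1 that takes part in its export, both fell by about 1 on the log2 scale, from 442 to 220 CPM (edgeR adjusted p = 0.0428) and from 604 to 303 CPM (edgeR adjusted p = 0.0144). The summed level of this list was 4588 to 5491 CPM in the D0 libraries and 2060 to 3252 CPM in the D6 libraries.

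Transcripts known as targets of the neuronal members rose in 7 of 13 tested, and none fell, with a median of 2.34, where 5.21% of all intervals rose. After 15 h of 4sU, 4 of the 13 rose and none fell, where 4.76% of all intervals rose. Mapt, which encodes tau, went from 8.47 to 1339.6 CPM (log2 7.32, edgeR adjusted p = 5.9e-16). Camk2a, a kinase of synapses, was at 0 CPM at D0 and 12.3 CPM at D6 (edgeR adjusted p = 0.0385), and Bdnf, a neurotrophin, at 0.05 and 18.6 CPM (edgeR adjusted p = 0.0781). Of 15 transcripts known as targets of ELAVL1, 2 rose, 0 fell and 13 did not pass, with a median of -0.12. After 15 h of 4sU the counts were also 2, 0 and 13, with a median of -0.86 beside 0 for all intervals. Cdkn1b, an inhibitor of the cell cycle, went from 130 to 383 CPM (log2 1.56, edgeR adjusted p = 0.00384). Myc was at 3.04 and 0.26 CPM and Ccnb1 at 219.7 and 80.8 CPM, and neither passed (edgeR adjusted p = 0.413 and 0.077). Many targets of the neuronal members are also neuronal genes, and the neuronal markers rose in the same libraries.

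Loss of label was also counted in the lists. After 9 h at D6, label fell on 9 of 12 AU-rich binding proteins, 7 of 10 partners, 6 of 9 neuronal ELAV targets and 8 of 12 ELAVL1 targets with enough covered T, and rose on none. At D0 the counts were 6 of 12, 6 of 10, 4 of 9 and 6 of 12. Of all intervals 34.3% were called at D6 and 18.4% at D0. The medians at D0 were -2.60, -2.10, -2.46 and -3.22, beside -2.36 for all intervals, and at D6 -3.37, -3.05, -2.86 and -2.90, beside -3.04. Of these lists no gene differed between the states after adjustment (edgeR), beside 2 of 9820 intervals.

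The genes whose group means ran most like each member over the 16 groups were sought, and Hoxb3 was among them for both Elavl3 and Elavl4. For Elavl3 they were Hoxa5, Hoxb3 and Hoxa3 (Pearson r of log2 CPM 0.998 each, over 16 groups among 10941 genes), and for Elavl4 Pou3f2, Hoxb8 and Hoxb3 (0.997 to 0.996). Hox genes set position along the body axis, and Pou3f2 encodes a neural transcription factor. For Elavl2 they were Jund, Gsk3b and Hmgcs1 (0.983 to 0.979), and for Elavl1 Ywhae, Cds2 and Ppp1r2 (0.867 to 0.813). Elavl3 and Elavl4 correlated with each other at 0.994 and Elavl1 with the other members at -0.35 to -0.17. The points share libraries, and those correlations follow the step between the states. Over the 8 groups of a state, Elavl3 and Elavl4 correlated at 0.61 at D0 and at -0.65 at D6.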

How the data were processed

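The authors mapped the reads with SLAMdunk (0.3.3 per the file headers) to mm10, masked polymorphisms and counted over 3′ UTR intervals, which the files name by RefSeq transcripts while the methods name a GENCODE annotation. The deposited counts per interval, not normalized, give its reads, the read bases over T and the T>C conversions, and these were used. The deposited CPM, which the authors scaled to all mapped reads, served only to recover library totals for an alternative. CPM in the text was computed from the counts with TMM. The treatment of reads that map to several places is not given in the sources used here. Rows of the same interval were counted once, and mRNA intervals were kept. The members and lists were chosen with earlier results of these data known.

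Reads were tested in R 4.3.3 with edgeR 4.0.16 (quasi-likelihood, TMM, filterByExpr, all 16 groups, Benjamini-Hochberg at 0.05). Conversions were tested likewise, with the log of covered T as offset and a minimum mean of 1000 covered T. DESeq2 1.42.0, other filters, scalings, counting per transcript and leaving out each library served as alternatives. Half-lives were least-squares fits to the share of the mean rate at 0 h of the chase, where the methods give the labeling as 15 h and elsewhere as 13 h, and were kept up to 5000 min (Python 3.11.15, scipy 1.17.1). In ratios, 1 read was added to each count. The tests were also run on simulated counts. The changes simulated in labeling were placed in well-covered intervals only, and the outcome is not used here. From the lists of binding proteins, partners and targets and from the neuronal and undifferentiated markers, the 3 genes with the largest change in reads are named. From the other marker lists only some genes are named. For each member the 3 genes with the highest correlation among genes reaching 10 CPM in a group are named. Marker lists also covered endoderm and mesoderm. The range and median of the depth are given in the report. Reads carry no molecular identifiers, and precision is given by the spread between libraries.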

Additional observations from a re-analysis of the deposited data

Results flagged for a closer look

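The second point of the chase differed in direction between the states on Elavl3. At D0 every library was below the mean at 0 h (85.6%, 48.4% and 98.7%, mean 77.6%), and at D6 every library was above it (103%, 118% and 103%, mean 108%). The libraries at 0 h ran from 73.0% to 133% of their mean at D0 and overlapped the second point, and from 97.9% to 102% at D6, below it, as for 4.17% of 7676 intervals. The difference between the states was not tested.

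Reads on Elavl3 after 15 h of 4sU lay on opposite sides of the mean without 4sU. At D0 every library was below that mean (mean 0.862 times) and at D6 every library was above it (mean 1.10 times). At D0 the groups overlapped, at 57.5, 80.4 and 74.9 CPM after 15 h and 104, 69.5 and 73.2 CPM without, so that only replicate 55 without 4sU was above every library after 15 h. Without it the log2 value at D0 went from -0.22 to -0.0089. At D6, replicate 37 without 4sU (2437 CPM) was above all 3 libraries after 15 h (2199, 2363 and 2121 CPM). With totals of all mapped reads both log2 values were negative, -0.48 at D0 and -0.16 at D6. The difference between the states was not tested, and neither change passed within its state (edgeR adjusted p = 1 at D0 and at D6).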

How the results depend on the processing

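The rise of Elavl2, Elavl3 and Elavl4 without 4sU was called under all 7 other settings and without each library in turn, and that of Elavl3 and Elavl4 also after 15 h. Totals of all mapped reads and the subtraction of the rate without 4sU were chosen after seeing the data. No paired analysis was possible because library numbers are not shared between groups. The share of reads per interval was not run, since each gene has 1 interval. At D0 the conversion rates of Elavl4 rest on few reads, 57 in each of 2 libraries after 15 h.

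Counts of called intervals moved most. For D6 against D0, 1295 without 4sU became 2198 with DESeq2 and 2106 per transcript, and 1363 after 15 h became 2269 and 2089. For 15 h against none at D0, 9 became 234 with DESeq2, 33 without a filter, 3 with mapped totals, 0 with the libraries compared only, and 4 to 11 without a library (5 without replicate 25 and 4 without replicate 56). At D6, 1 became 233, 7, 17 with mapped totals, 4 per transcript, 0 without TMM, 0 with DESeq2 size factors, and 0 to 2 without a library (0 without replicate 7, 8, 9, 37 or 38 and 2 without 39). Label loss at D0 went from 1805 to 3274 with DESeq2, 3025 per transcript, 34 relative to the library rate, and 212 to 1340 without a library (1130 without replicate 26, 320 without 34, 212 without 35, 546 without 36). At D6, 3365 became 17 relative to the library rate and 1607 to 2881 without a library (1607 without replicate 17, 1671 without 18). For its difference between states, 2 became 220 with DESeq2, 1 at a minimum of 5000 covered T, 1 relative to the library rate, 1 and 91 as a slope over the hours of the methods and of the labels, and 0 to 6 without a library (6 without replicate 16, 0 without 17 or 27, and 1 without 18, 25, 26 or 35). For uptake, 0 became 49 with DESeq2. For label after 15 h, 0 became 20 with DESeq2 and 5 at a minimum of 5000.

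None of the reversed values was called in either setting, and the cause was not tested. With mapped totals, 15 h against none at D0 was -0.011 for Elavl1, -0.21 for Elavl2 and -0.19 for Elavl4, and at D6 -0.11 for Elavl1 and -0.16 for Elavl3, while the median of all intervals moved by -0.16 and -0.26. Relative to the library rate, label loss at D0 was 0.30 for Elavl1 and 0.49 for Elavl2, its difference between states was 0.47 for Elavl3 and 0.036 for Elavl4, and the difference in uptake was 0.19 for Elavl2. Without a library, Elavl1 reads ranged from -0.22 to 0.024 without 4sU and from -0.38 to 0.15 after 15 h. For 15 h against none at D0 the ranges were -0.092 to 0.43 for Elavl1, -0.11 to 0.15 for Elavl2 and -0.52 to 0.46 for Elavl4. The difference in label loss ranged from -0.45 to 0.47 for Elavl3, that in uptake from -0.36 to 0.22 for Elavl2 and from -0.076 to 0.61 for Elavl3, and label after 15 h from -0.40 to 0.11 for Elavl2.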
